A study of Mus musculus with 16 samples.

Results

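The 9 genes described here make, break down, carry and sense retinoic acid: the synthesizing enzymes Aldh1a1, Aldh1a2 and Aldh1a3, the degrading enzyme Cyp26b1, the cellular binding proteins Crabp1 and Crabp2, and the receptors Rara, Rarb and Rarg. They were taken as every probe that is not a control and carries one of these gene names or an older synonym, which gave 12 of the 41174 probes and 9 of the 28655 genes on the array. All 9 passed the filter on dim genes, which kept 27262. Green fluorescent cells of GAD67-eGFP mice, kept on a C57Bl/6 background, were dissociated and sorted at postnatal day 1 from whole brain (4 arrays, 4 mice) and from 4 dissected regions (3 arrays each, 6 mice), namely olfactory bulb, striatum, cerebellum and cortex. In this line the reporter stands for Gad67 (gene Gad1), the enzyme that makes GABA, so the sort takes whichever cells are green and not 1 kind of interneuron. Every group was read against the same reference, amplified cDNA of unsorted brain from 4 mice of the same age. A log2 ratio above 0 means a higher signal in sorted cells (Cy5) than in the reference (Cy3), and a gene was called at an adjusted p under 0.05 by limma over all 27262 genes.

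Retinoic acid is made from vitamin A: retinol is oxidized to retinal, and the retinaldehyde dehydrogenases Aldh1a1 to Aldh1a3 oxidize retinal to the acid. Enzymes of the Cyp26 family hydroxylate it and so clear it, Crabp1 and Crabp2 bind it in the cytoplasm, and in the nucleus it activates the receptors, which sit on DNA together with retinoid X receptors. In the young mouse brain Aldh1a2 is known from the meninges, Aldh1a3 from the lateral ganglionic eminence and the rostral forebrain, and Aldh1a1 from dopaminergic neurons and their striatal endings.

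Rarb is itself a classic target of the pathway, since its promoter holds an element that retinoic acid receptors bind. The sequence is shown because a receptor and a target of that receptor are then the same gene, read below by a pair of probes that part company in cerebellum. It is the 250 bases before the 1 start that the RefSeq promoter table lists for Rarb, which lies inside the span of the gene given below and not at its outer end (GRCm38.p6, chr14:16575477-16575726, minus strand, printed 5′ to 3′ in the direction of the gene), with the direct repeat in capitals.
Rarb upstream: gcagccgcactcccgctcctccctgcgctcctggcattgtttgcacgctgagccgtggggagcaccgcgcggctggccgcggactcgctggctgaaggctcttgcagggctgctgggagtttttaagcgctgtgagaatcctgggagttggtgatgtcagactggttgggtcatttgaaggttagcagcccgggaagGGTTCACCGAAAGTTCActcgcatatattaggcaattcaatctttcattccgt
The repeat runs from 53 to 37 bases before the start. The letters searched were those of the Rarb element itself, GGTTCA and AGTTCA with 5 free bases (N) between them, on both strands. A match in the Rarb window, also of the looser form below, was thus fixed beforehand, and the counts only describe how rare the letters are. They occurred in 2 of 32851 RefSeq windows of 300 bases around gene starts (0.00609%). Of the 9 genes, 7 have such windows in the table, 12 windows in all, and the Rarb window was the only one of these with the letters. The looser form, GTTCA repeated after 6 free bases, which lies within the first, stood in 0.0761% of all windows and again only in that of Rarb among the 12. The pairs of GTTCA with 3 or 2 free bases between them, and the pairs of GGTCA with 6, 3 or 2, stood in 0.0548% to 0.225% of all windows and in none of the 12.

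The sorted cells of olfactory bulb, striatum and cortex carried the GABAergic markers, while those of whole brain and cerebellum did so in part. Of 8 marker genes (Gad1, Gad2 and Dlx genes among them), 8 were higher than in the reference in olfactory bulb, cortex and striatum each. In cerebellum 6 were higher and 1 was lower. In whole-brain cells 5 were higher and 3 lower, and Gad1, the gene that drives the reporter, was at -1.51 there against 0.79 to 0.91 in the regions. All whole-brain arrays were scanned on another date than all regional arrays, so that whole brain and scan cannot be told apart. Whole-brain arrays correlated with regional ones across genes at Pearson's r of 0.621 to 0.751, and arrays of 1 group with each other at 0.936 to 0.992. Per array, 78.1% to 96.6% of sorted-cell spots and 72.1% to 90.7% of reference spots exceeded the background. In material of this kind fewer cells of a type and less RNA per cell cannot be told apart.

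Of the 9 genes, the binding protein Crabp2 gave the lowest ratio in every group. It fell in all 5 groups, to a log2 ratio of -3.07 ± 0.06 in whole-brain cells (SE, n = 4), which is 8.39-fold below the reference, and to -2.55 to -1.90 in the regions. Rara rose in striatum alone and fell in whole brain, olfactory bulb and cerebellum. Cyp26b1 rose in whole brain, cortex, striatum and cerebellum, and most in cerebellum (2.17-fold). Olfactory bulb had the lowest Crabp1, Rarb and Rarg of the 4 regions, with the highest Crabp2. The plot of ratios by array shows these values.

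**Figure D1:**
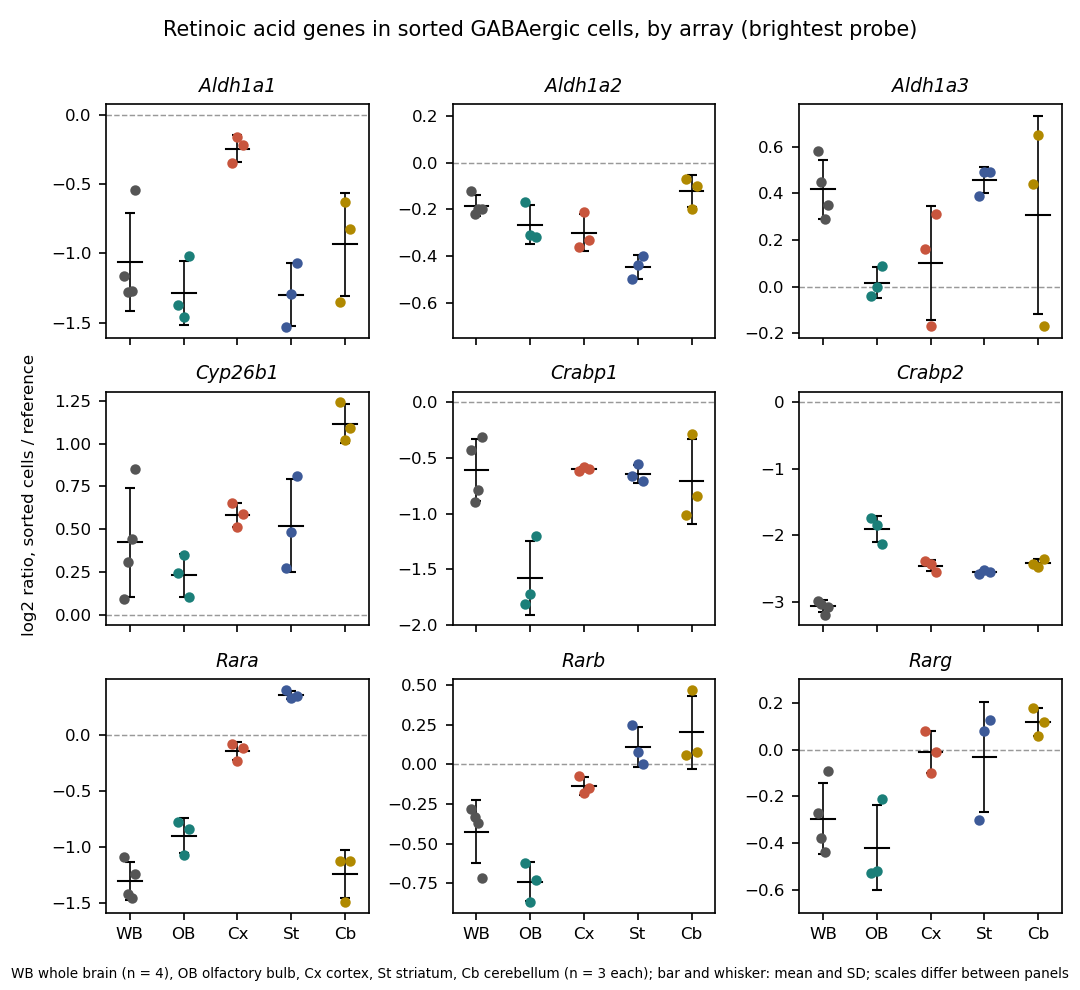
Log2 ratio of sorted cells to the whole-brain reference for the 9 genes, 1 point per array (brightest probe of each gene), with the mean and SD of each group. Crabp2 lies below -1.7 on every array, and the 3 striatum arrays are the only ones with Rara above 0.

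Against the reference, all 9 genes were called in whole-brain cells (2 higher, 7 lower), beside 79.7% of all genes tested. In olfactory bulb 7 were called, all lower, beside 67.9% of all genes (31.2% lower), and in striatum 7 (3 higher, 4 lower) beside 67.6%. In cerebellum 7 were called (3 higher, 4 lower) beside 76% of all genes, and in cortex 4 (1 higher, 3 lower) beside 69.5%. The share of the 9 that was called was thus 100% in whole brain, 77.8% in olfactory bulb, striatum and cerebellum each, and 44.4% in cortex. With median centring in place of loess, 6 were called in whole brain (3 higher, 3 lower), beside 85.4% of all genes, and 7 in olfactory bulb (1 higher, 6 lower), beside 79%. The median ratio of the 9 was -0.43 in whole brain and -0.74 in olfactory bulb, and it was -0.14 in cortex, -0.03 in striatum and -0.12 in cerebellum. The median of all genes lay between 0.03 and 0.09 in these comparisons. Among the 4 regions 8 of the 9 differed by limma's moderated F test, beside 57.5% of all genes, and Aldh1a3 was the one that did not (adjusted p = 0.0678).

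Crabp2 (chr3:87948693-87953372, GRCm38.p6), which hands retinoic acid to its receptors, was low on every array. Its log2 ratios were -2.98, -3.03, -3.19 and -3.07 in whole-brain cells and -1.74, -1.84 and -2.13 in olfactory bulb. They were -2.38, -2.43 and -2.55 in cortex, -2.58, -2.52 and -2.55 in striatum, and -2.43, -2.48 and -2.35 in cerebellum. The whole-brain arrays lay below all regional arrays and the olfactory bulb arrays above all others, with no overlap. Olfactory bulb exceeded cortex by 0.54 ± 0.10 (1.46-fold, adjusted p = 0.000956), striatum by 0.65 ± 0.10 (adjusted p = 8.44e-05) and cerebellum by 0.51 ± 0.10 (adjusted p = 0.000375; SE, n = 3 arrays each, limma). Whole brain was below the mean of the regions by 0.74 ± 0.07 (adjusted p = 1.24e-08). With ratios scaled between arrays, the difference of whole brain from the regions shrank to -0.01 and that of olfactory bulb from cerebellum to 0.16, and neither was called. Differences among cortex, striatum and cerebellum were not called without that scaling, and their 95% intervals reached at most 0.33 from 0. With it all 3 were called, cortex above striatum by 0.38 (adjusted p = 0.0327) and below cerebellum by 0.45 (adjusted p = 0.0117), and striatum below cerebellum by 0.83 (adjusted p = 4.32e-05).

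The markers of 2 other cell types are set beside the Crabp2 values. Meningeal genes, 13 in all, had a mean log2 ratio per array between -1.46 and -1.27 in whole brain, -1.43 and -1.35 in olfactory bulb, -1.47 and -1.36 in cortex, -1.41 and -1.18 in striatum, and -1.31 and -1.12 in cerebellum. They were thus below the reference everywhere, with 9 of 13 called lower in whole brain and cortex and 10 of 13 in the other groups. Their mean in olfactory bulb lay inside the range of the other regions. Between regions, 2 of the 13 were higher and 2 lower in olfactory bulb than in cortex, 1 higher and 4 lower than in striatum, and 3 higher and 6 lower than in cerebellum. The 5 genes of olfactory ensheathing cells, the glia of the olfactory nerve, ran from -0.67 to -0.22 per array in olfactory bulb, and from -1.08 to -0.66 in the other regions. They were split, with 2 of the 5 higher and 0 lower in olfactory bulb than in cortex. Against striatum 2 were higher and 2 lower, and against cerebellum 3 higher and 1 lower. No gene of either list was at background on all arrays of a group in the sorted channel. The part of these cells in the Crabp2 ratios was not tested.

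Crabp1 (chr9:54764748-54773110), the second cellular binding protein, was also lower than the reference in all 5 groups. The log2 ratios were -0.43, -0.89, -0.79 and -0.31 in whole-brain cells, -1.81, -1.72 and -1.20 in olfactory bulb, -0.62, -0.58 and -0.60 in cortex, -0.66, -0.55 and -0.71 in striatum, and -1.01, -0.28 and -0.84 in cerebellum. The 3 olfactory bulb arrays lay below the other 13, while the other groups overlapped. Olfactory bulb was at -1.58 ± 0.13 (2.98-fold below the reference), and below cortex by 0.98 ± 0.18 (adjusted p = 0.0011), striatum by 0.94 ± 0.18 (adjusted p = 0.000691) and cerebellum by 0.87 ± 0.18 (adjusted p = 0.000746; SE, limma). Cortex, striatum and cerebellum lay within 0.11 of each other, with 95% intervals of the differences from -0.33 to 0.48. Whole brain lay above the mean of the regions by 0.28 ± 0.13 without a call (adjusted p = 0.0626), and the difference was called without whole-brain array 2 (0.37, adjusted p = 0.0263) or 3 (0.34, adjusted p = 0.0477), olfactory bulb array 3 (0.32, adjusted p = 0.0203) or cerebellum array 2 (0.33, adjusted p = 0.012). It was also called with median centring (0.59, adjusted p = 0.000282) and with scaling between arrays (0.46, adjusted p = 0.00237). In whole brain the call was lost when arrays were centred on their median without loess (-0.17, adjusted p = 0.174). The pair of binding proteins thus took opposite places in olfactory bulb, Crabp1 at its lowest and Crabp2 at its highest among the regions. Across the 12 regional arrays their ratios correlated at -0.93, a description of 4 regions that share the reference. Genes of olfactory bulb interneurons, 7 in all, had mean ratios per array between 1.31 and 1.41 in olfactory bulb, against 0.51 to 0.69 in striatum and cortex and -0.65 to -0.56 in cerebellum, and their part in these values was not tested. Microglial genes, 4 in all, ran from -1.21 to -0.92 per array in olfactory bulb and from -0.64 to -0.14 in the other regions, with 3 of 4 lower in olfactory bulb than in cortex or striatum and 4 of 4 lower than in cerebellum. The 6 genes of astrocytes and radial glia ran from -1.68 to -1.52 in olfactory bulb, against -2.32 to -2.10 in cortex, -1.31 to -1.27 in striatum and -1.56 to -1.36 in cerebellum. The part of either list in the olfactory bulb values of Crabp1, Crabp2, Rarb and Rarg was not tested.

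A ratio can differ because either channel does, so the signals of the sorted cells and of the reference were also compared one by one, after bringing all arrays to a common distribution. For Crabp2 the signal of sorted cells ranged over 0.63 on the log2 scale among the region means and that of the reference over 0.15. For Crabp1 the ranges were 0.94 in sorted cells and 0.31 in the reference, and for Rara 1.57 and 0.18. Aldh1a1 differed from these genes, with a range of 1.20 in sorted cells and 0.98 in the reference. The reference should be the same RNA on every array. It moved for other genes too, with ranges of 0.39 in sorted cells and 0.38 in the reference for Aldh1a2. These were 0.75 and 0.46 for Aldh1a3, and 1.47 and 0.53 for Rarb. For Rarg they were 0.41 and 0.17, and for Cyp26b1 1.02 and 0.28.

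**Figure D2:**
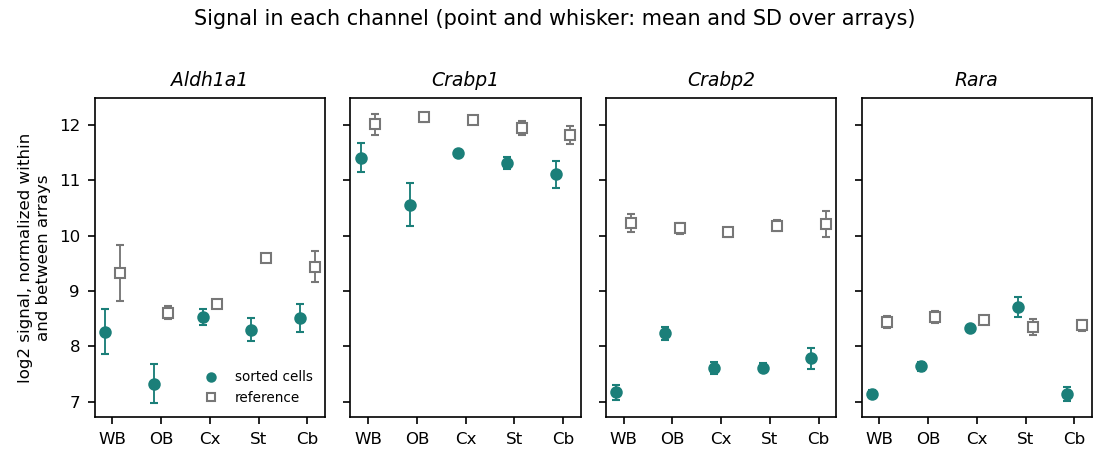
Mean log2 signal (± SD over arrays) of sorted cells and of the reference for 4 genes, after normalization within and between arrays. The reference is nearly level for Crabp2 and Rara, whereas for Aldh1a1 it lies at 8.61 in olfactory bulb and 9.59 in striatum.

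Aldh1a1 (chr19:20492583-20643463) oxidizes retinal to retinoic acid and is best known in the brain from dopaminergic neurons. The log2 ratios were -1.16, -1.28, -1.27 and -0.54 in whole-brain cells, -1.37, -1.46 and -1.02 in olfactory bulb, -0.35, -0.16 and -0.22 in cortex, -1.53, -1.29 and -1.07 in striatum, and -1.35, -0.63 and -0.82 in cerebellum. All 16 arrays were below 0, the 3 cortex arrays above all others. It fell in whole brain (2.08-fold), olfactory bulb (2.43-fold), striatum (2.45-fold) and cerebellum (1.91-fold), and stood at -0.24 ± 0.13 in cortex, where it was not called (adjusted p = 0.114, limma). Olfactory bulb was below cortex by 1.04 ± 0.19 (adjusted p = 0.00109), and cortex exceeded striatum by 1.05 ± 0.19 (adjusted p = 0.00108) and cerebellum by 0.69 ± 0.19 (adjusted p = 0.011).

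In the sorted-cell channel alone the picture for Aldh1a1 changed. There cortex exceeded striatum by 0.23 (adjusted p = 0.511) and cerebellum by 0.02 (adjusted p = 0.961), and both calls were lost. Olfactory bulb was instead below each other region, by 1.20 against cortex, 0.97 against striatum (adjusted p = 0.0042) and 1.18 against cerebellum (adjusted p = 0.00053). On the ratio, by contrast, olfactory bulb and striatum differed by 0.01 with a 95% interval from -0.38 to 0.41. Without the first cerebellum array, the lowest of the 3, the excess of cortex over cerebellum was 0.48 and not called (adjusted p = 0.0737), while olfactory bulb and striatum both came out below cerebellum, by 0.56 (adjusted p = 0.028) and 0.57 (adjusted p = 0.0262). Genes of dopaminergic neurons, 6 in all, had mean ratios per array between -0.43 and -0.39 in whole brain, -0.67 and -0.54 in olfactory bulb, -0.50 and -0.46 in cortex, -0.52 and -0.44 in striatum, and -0.36 and -0.20 in cerebellum. Their part in the Aldh1a1 values was not tested. The genes most like Aldh1a1 over the 12 regional arrays, among 756 with a 2-fold range, were Ngef (r = 0.703), Gdpd2 (r = 0.693) and B3gat3 (r = 0.691).

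Aldh1a2 (chr9:71215789-71296243), the main retinaldehyde dehydrogenase of the embryo, moved little. Its log2 ratios lay between -0.22 and -0.12 in whole-brain cells, -0.32 and -0.17 in olfactory bulb, -0.36 and -0.21 in cortex, -0.50 and -0.40 in striatum, and -0.20 and -0.07 in cerebellum. It fell in whole brain (1.14-fold), olfactory bulb, cortex and striatum (1.36-fold), and was at -0.12 ± 0.06 in cerebellum, where it was not called (adjusted p = 0.0606, limma). Striatum lay below cerebellum by 0.32 ± 0.08 (adjusted p = 0.00385), the only called difference between regions with the main settings. Olfactory bulb lay below cerebellum by 0.15 without a call, but by 0.26 to 0.51 and with a call under 4 alternatives (adjusted p from 0.00635 to 0.0388). Whole brain lay above the mean of the regions by 0.10 without a call, but by 0.16 to 0.44 and with a call under 5 (adjusted p from 0.000723 to 0.0342). The fall in whole brain turned to 0.18 with median centring in place of loess, and was -0.04 and not called on the scanner's own ratio. Median centring also ended the calls in olfactory bulb (-0.16, adjusted p = 0.0853) and cortex (-0.08, adjusted p = 0.407). The difference among regions was not called without the first striatum array (adjusted p = 0.0593) or the first cerebellum array (adjusted p = 0.0614), with a range over regions of 0.30 in each case.

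Aldh1a3 (chr7:66390892-66427477) was close to background. Its brighter probe was well above background on 15 of 16 arrays in the sorted channel and on 11 in the reference channel, among them none of the 3 olfactory bulb arrays. The log2 ratios of that probe were 0.58, 0.45, 0.29 and 0.35 in whole-brain cells, -0.04, 0.00 and 0.09 in olfactory bulb, 0.16, -0.17 and 0.31 in cortex, 0.39, 0.49 and 0.49 in striatum, and 0.44, 0.65 and -0.17 in cerebellum. It rose in whole brain (1.34-fold), striatum (1.37-fold, adjusted p = 0.00107) and cerebellum (1.24-fold, adjusted p = 0.0156, limma). In olfactory bulb the ratio is only a bound, at least 1.01-fold and not called. The cerebellum call was lost without the first (0.24, adjusted p = 0.115) or the second cerebellum array (0.14, adjusted p = 0.313).

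The dimmer Aldh1a3 probe was well above background in sorted cells on all 3 striatum arrays and on no other array, and in the reference on none. Its ratio in striatum was at least 1.19-fold. In the sorted channel striatum exceeded whole brain by at least 1.31-fold, olfactory bulb by at least 1.23-fold, cortex by at least 1.16-fold and cerebellum by at least 1.40-fold. Over both probes striatum was the only group in which all arrays were above 0 and above background in sorted cells. With the dimmer probe at background elsewhere, no other group could have met this. The probes correlated at 0.00988 over the 16 arrays, and their means had the same sign in 2 of the 5 groups. For the brighter probe olfactory bulb was below striatum by 0.44 ± 0.15 (adjusted p = 0.0411), and this call was lost when any 1 of the 6 arrays involved was left out, with differences from -0.47 to -0.41 and adjusted p from 0.058 to 0.11. The difference among regions was called without the second (adjusted p = 0.0424) or the third cerebellum array (range 0.53, adjusted p = 0.00263) or the third cortex array (adjusted p = 0.047). Without cerebellum array 3, the one below 0, olfactory bulb was also below cerebellum by 0.53 (adjusted p = 0.00344), and cortex below cerebellum by 0.45 (adjusted p = 0.0157) and striatum by 0.36 (adjusted p = 0.0344). Without cerebellum array 2, whole brain exceeded the mean of the regions by 0.24 (adjusted p = 0.0361), against 0.20 and no call with all arrays.

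Cyp26b1 (chr6:84571414-84593908), a hydroxylase that clears retinoic acid, was the only one of the 4 enzymes among the 9 genes with a mean above the reference by over 2-fold in a group, cerebellum. Its log2 ratios were 0.09, 0.31, 0.44 and 0.85 in whole-brain cells, 0.24, 0.35 and 0.10 in olfactory bulb, 0.65, 0.51 and 0.59 in cortex, 0.27, 0.48 and 0.81 in striatum, and 1.24, 1.02 and 1.09 in cerebellum. All 16 arrays were above 0, and the 3 cerebellum arrays lay above the other 13. It rose in whole brain (1.34-fold), cortex (1.50-fold), striatum (1.43-fold) and cerebellum (2.17-fold, adjusted p = 1.21e-08), and was at 0.23 ± 0.11 in olfactory bulb (adjusted p = 0.068, limma). That value was called when the first or the fourth whole-brain array was left out (adjusted p = 0.0416 and 0.026 at the same 0.23), and it was 0.72 and called with median centring in place of loess. It was called too on the scanner's own ratio (0.33, adjusted p = 0.0279) and with scaling between arrays (0.24, adjusted p = 0.0477). Below cerebellum were olfactory bulb by 0.89 ± 0.15 (adjusted p = 0.000144), cortex by 0.54 ± 0.15 (adjusted p = 0.014) and striatum by 0.60 ± 0.15 (adjusted p = 0.00427). Without the first cerebellum array (0.47, adjusted p = 0.0572) or the second cortex array (0.50, adjusted p = 0.0556) the difference between cortex and cerebellum was not called. That call was also lost on the scanner's own ratio (-0.48, adjusted p = 0.063) and with scaling between arrays (-0.40, adjusted p = 0.0553). Without the fourth whole-brain array, the highest of its group, whole brain lay below the mean of the regions by 0.33 (adjusted p = 0.00647), against 0.19 and no call with all arrays. Genes of cerebellar GABAergic neurons, 8 in all, had mean ratios per array between 0.56 and 0.69 in cerebellum, where 7 were called higher, and between -0.70 and -0.20 in the other groups. Their part in the Cyp26b1 values was not tested.

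Rara (chr11:98927800-98974942), the broadly expressed alpha receptor, had the widest range over the regions when each gene is read by its brightest probe. Its log2 ratios were -1.09, -1.42, -1.45 and -1.24 in whole-brain cells and -0.78, -1.07 and -0.84 in olfactory bulb. They were -0.08, -0.23 and -0.12 in cortex, 0.40, 0.33 and 0.35 in striatum, and -1.12, -1.49 and -1.12 in cerebellum. No array of a region overlapped with those of another region, in the order striatum, cortex, olfactory bulb, cerebellum. Rara rose in striatum (1.28-fold, adjusted p = 0.000698) and fell in whole brain (2.46-fold), olfactory bulb (1.86-fold) and cerebellum (2.37-fold), while cortex was at -0.14 ± 0.08 and not called (adjusted p = 0.138, limma), though with scaling between arrays it was called at -0.15 (adjusted p = 0.0297).

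All 6 differences of Rara between regions were called. Olfactory bulb was below cortex by 0.76 ± 0.12 (adjusted p = 0.000267) and below striatum by 1.25 ± 0.12 (adjusted p = 3.1e-07). Cortex was below striatum by 0.50 ± 0.12 (adjusted p = 0.00639) and above cerebellum by 1.11 ± 0.12 (2.15-fold). Striatum exceeded cerebellum by 1.60 ± 0.12, or 3.04-fold (adjusted p = 6.01e-09). Olfactory bulb exceeded cerebellum by 0.35 ± 0.12 (adjusted p = 0.0214), which was 0.17 and not called with scaling between arrays. It was not called either without the second cerebellum array (0.23, adjusted p = 0.131), the first olfactory bulb array (0.29, adjusted p = 0.0919) or the third (0.32, adjusted p = 0.0632). The other 5 differences were called under all 28 alternatives. Whole brain lay below the mean of the regions by 0.82 ± 0.08 (adjusted p = 3.26e-08).

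The signal of sorted cells alone gave the same order for Rara, at 8.71 in striatum, 8.33 in cortex, 7.64 in olfactory bulb and 7.14 in cerebellum, with 7.14 in whole brain. The reference stayed between 8.35 and 8.53 in all 5 groups. The mean of 11 genes of striatal projection neurons was also highest in striatum, between 0.10 and 0.24 per array. It was -0.12 to 0.00 in cortex, -0.71 to -0.63 in olfactory bulb and -0.72 to -0.58 in cerebellum. The genes were split, with 7 called higher and 3 lower than the reference in striatum. Against striatum, 1 was higher and 4 lower in cortex, and 2 higher and 6 lower in olfactory bulb. Striatum had 6 higher and 2 lower than cerebellum. The part of these genes in the Rara values was not tested. The genes most like Rara over the 12 regional arrays were Pantr1 (r = 0.975), P2ry1 (r = 0.975) and Carhsp1 (r = 0.97), again among 756 with a 2-fold range. P2ry1 stood at 0.43 in striatum, 0.05 in cortex, -0.50 in olfactory bulb and -0.84 in cerebellum.

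Rarb (chr14:16430839-17082331), the beta receptor named above as a target of the pathway, had probes that disagreed. The brighter, A_52_P495759, is described on the array as a partial transcript of the beta 4 isoform, and the dimmer, A_51_P202440, as the RefSeq transcript. The log2 ratios of the brighter probe were -0.28, -0.33, -0.37 and -0.72 in whole-brain cells, -0.62, -0.87 and -0.73 in olfactory bulb, -0.07, -0.18 and -0.15 in cortex, 0.25, 0.08 and 0.00 in striatum, and 0.06, 0.47 and 0.08 in cerebellum. Those of the dimmer probe were -1.76, -1.83, -1.82 and -1.24 in whole-brain cells, -1.84, -1.95 and -1.78 in olfactory bulb, -0.34, 0.12 and -0.17 in cortex, 0.41, 0.40 and 0.13 in striatum, and -1.05, -1.38 and -1.37 in cerebellum. Both probes were low in olfactory bulb and near the reference in cortex, and only in cerebellum did they take opposite sides.

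By the brighter probe Rarb fell in whole brain (1.34-fold) and olfactory bulb (1.67-fold, adjusted p = 2.6e-07) and rose in cerebellum (1.15-fold, adjusted p = 0.0406, limma). The rise rested on the second cerebellum array, without which it was 0.07 (adjusted p = 0.52), and the fall in whole brain turned to 0.09 with median centring in place of loess. Olfactory bulb was below cortex by 0.61 ± 0.12 (adjusted p = 0.00254), striatum by 0.85 ± 0.12 (adjusted p = 5.79e-05) and cerebellum by 0.94 ± 0.12 (adjusted p = 8.85e-06). Cortex was below cerebellum by 0.34 ± 0.12, just short of a call (adjusted p = 0.0503). That difference was called without the first whole-brain array (adjusted p = 0.044) or the fourth (adjusted p = 0.0249), and without the first (0.41 below) or the third cerebellum array (0.40 below). Whole brain was below the mean of the regions by 0.29 ± 0.09, and without the fourth whole-brain array by 0.19, where the call was lost (adjusted p = 0.0622). It was lost too on the scanner's own ratio (-0.16, adjusted p = 0.198), with median centring (-0.07, adjusted p = 0.568) and in the sorted-cell channel alone (-0.02, adjusted p = 0.894), where the reference channel differed by 0.27.

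By the dimmer probe, adjusted over all 41174 probes, olfactory bulb was below cortex by 1.73 ± 0.15 (3.31-fold, adjusted p = 2.36e-07, beside 14.8% of all probes called) and below striatum by 2.17 ± 0.15 (4.49-fold, adjusted p = 5.93e-09, beside 24.6%). Cortex exceeded cerebellum by 1.14 ± 0.15 (adjusted p = 1.47e-05, beside 25.1%), and striatum exceeded cerebellum by 1.58 ± 0.15 (2.98-fold, adjusted p = 2.02e-07, beside 35.2%). For the brighter probe the same differences were -0.34 and -0.09. The order of the regions by the dimmer probe, striatum, cortex, cerebellum, olfactory bulb, thus shared with Rara its upper places. Over the 16 arrays the 2 Rarb probes correlated at 0.563, a description of 5 groups that share the reference. Where on the gene each probe lies is not given in the sources used here, so the isoforms behind the values are not assigned.

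**Figure D3:**
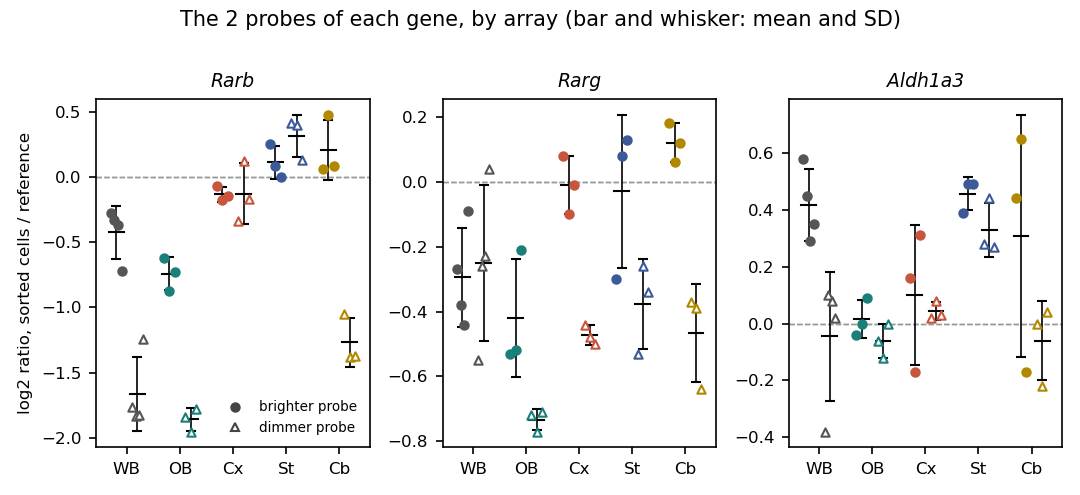
Log2 ratio of sorted cells to reference for both probes of Rarb, Rarg and Aldh1a3, 1 point per array, with the mean and SD of each group. The Rarb probes lie together in cortex and apart in cerebellum, at means of 0.20 for the brighter and -1.27 for the dimmer probe.

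Rarg (chr15:102234938-102257522), the gamma receptor, had the smallest range over the regions of the 3 receptors (0.54). The brighter of its probes had log2 ratios of -0.27, -0.38, -0.44 and -0.09 in whole-brain cells, -0.53, -0.52 and -0.21 in olfactory bulb, 0.08, -0.10 and -0.01 in cortex, -0.30, 0.08 and 0.13 in striatum, and 0.18, 0.06 and 0.12 in cerebellum. It fell in whole brain (1.23-fold) and olfactory bulb (1.34-fold), but stood at 0.25 in whole brain and 0.06 in olfactory bulb with median centring in place of loess. The dimmer probe had a mean below 0 in each group, at -0.73 in olfactory bulb, -0.47 in both cortex and cerebellum, -0.38 in striatum and -0.25 in whole brain. Both probes had their lowest mean in olfactory bulb. By the brighter probe olfactory bulb was below cortex by 0.41 ± 0.12 (adjusted p = 0.0243), striatum by 0.39 ± 0.12 (adjusted p = 0.0201) and cerebellum by 0.54 ± 0.12 (adjusted p = 0.0015, limma).

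The smaller Rarg differences hung on single arrays, on the normalization and on the probe. That between olfactory bulb and cortex was not called without olfactory bulb array 1 (-0.35) or 2 (-0.36), or cortex array 1 (-0.37) or 3 (-0.41), with adjusted p from 0.0682 to 0.107. That between olfactory bulb and striatum was not called without olfactory bulb array 1 or 2 (both -0.34), or striatum array 2 (-0.34) or 3 (-0.31), with adjusted p from 0.0803 to 0.107. With median centring olfactory bulb was not called against cortex (-0.19, adjusted p = 0.33), striatum (-0.25, adjusted p = 0.194) or cerebellum (-0.24, adjusted p = 0.165). The same held in the sorted-cell channel alone (-0.41, -0.26 and -0.37, adjusted p = 0.182, 0.392 and 0.173). By the dimmer probe, adjusted over all probes, it was called against striatum (-0.35, adjusted p = 0.0366). It was not called there against cortex (-0.26, adjusted p = 0.161) or cerebellum (-0.27, adjusted p = 0.0861, limma). Whole brain was below the mean of the regions by 0.21 ± 0.09 (adjusted p = 0.0368), and this call was lost without any of 8 arrays (-0.22 to -0.16, adjusted p 0.0534 to 0.151). They are arrays 1, 2 and 3 of whole brain, array 1 of cerebellum, array 1 of cortex, array 3 of olfactory bulb, and arrays 2 and 3 of striatum. The call held under 13 of 27 alternatives. Among other settings, it was lost on the scanner's own ratio (-0.10), with scaling between arrays (-0.14) and in the sorted-cell channel alone (-0.07). Median centring gave 0.01 and the mean of probes 0.03, neither called. By the dimmer probe whole brain was instead above the regions by 0.26 (adjusted p = 0.0112, limma). Another pair of probes, described on the array as the beginning of a gamma 3 receptor transcript, carries no gene symbol and lies outside the 12. The brighter of that pair was at 1.04 in olfactory bulb, 0.90 in cortex, 0.75 in whole brain, 0.74 in cerebellum and 0.36 in striatum. The dimmer was at -0.08 in olfactory bulb, 0.07 in cortex, 0.14 in whole brain, 0.24 in cerebellum and -0.15 in striatum. Both were above background on all 16 arrays, and they correlated at 0.162 over these. The pair thus disagreed on the level and on the place of olfactory bulb.

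Between regions, the olfactory bulb comparisons held most of the calls. Of the 9 genes 6 were called against cortex (1 higher, 5 lower), where 16.4% of all genes were. Against striatum 6 were called (1 higher, 5 lower), beside 27.7% of all genes, and against cerebellum 6 (2 higher, 4 lower), beside 39.8%. Cortex against striatum gave 2 (18.8% of all genes), cortex against cerebellum 3 (26%) and striatum against cerebellum 3 (38.8%). Set against the mean of the 4 regions, whole brain gave 4, all lower, beside 61.8% of all genes (30.5% lower). That split was 2 higher and 2 lower with median centring, and 2 higher and 3 lower with scaling between arrays. These comparisons share arrays and are not independent, and the 9 genes were chosen with results of these data known.

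The lists of other pathway genes are to be read beside the shares of all genes called in each group, from 67.6% in striatum to 79.7% in whole brain. Of 17 enzymes that oxidize or reduce retinol and retinal, or cleave carotenoids, 8 were higher and 7 lower in whole brain, 4 higher and 7 lower in olfactory bulb and in cortex each, 3 higher and 6 lower in striatum, and 8 higher and 6 lower in cerebellum. Dhrs3, which turns retinal back to retinol, fell by 2.00 in whole brain, 1.94 in cortex, 1.81 in olfactory bulb and 1.42 in striatum, and by 0.51 in cerebellum. Rdh14, a retinol dehydrogenase, fell to -3.57 in whole brain and to between -2.10 and -1.53 in the regions. Rdh10, which makes the retinal that the Aldh1a enzymes use in the mouse embryo, fell by 1.17 in whole brain and by 0.59 in cerebellum, and was at 0.02 in striatum. Dhrs4, a retinal reductase, rose by 0.72 in striatum and by 1.04 to 1.30 elsewhere. In whole brain Rdh11 fell to -2.31 and Rdh13 to -2.47, and Bco1, the carotene cleaving enzyme, rose by 1.06. Adh5 rose by 1.01 in whole brain and fell by 1.03 in olfactory bulb.

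Of 6 genes of retinol transport and binding, 2 were higher and 3 lower in whole brain, 4 higher and 2 lower in olfactory bulb and in cerebellum, 3 higher and 1 lower in cortex, and 4 higher and 1 lower in striatum. Stra6, the receptor that takes up retinol, and Lrat, which esterifies it, were higher in all 5 groups, Stra6 by 0.34 to 0.68 and Lrat by 0.39 to 0.73. Ttr, the carrier of thyroid hormone and retinol binding protein that the choroid plexus makes, was at 1.33 in striatum and at -1.69 in whole brain, -2.09 in olfactory bulb, -1.49 in cortex and -2.69 in cerebellum. The 5 choroid plexus genes, Ttr among them, had mean ratios per array between 0.29 and 0.54 in striatum and 0.05 and 0.23 in cerebellum. In the other groups these means lay between -0.74 and -0.38. The median of the 5 was 0.41 in striatum and 0.55 in cerebellum. Against cerebellum, 1 of the 5 was higher in striatum and 2 were lower. The part of these 5 genes in the striatal values was not tested. Cyp26a1, the other hydroxylase measured, fell by 0.32 in whole brain and was between -0.01 and 0.14 in the regions, where it was not called.

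Of the 3 retinoid X receptors, the partners of the receptors, 1 was higher and 1 lower in whole brain, and 0 and 2 in olfactory bulb. In cortex 1 was higher and 0 lower, in striatum 2 and 1, and in cerebellum 1 and 1. The receptor called lower in striatum, at -0.34, was neither Rxrb nor Rxrg. Rxrb rose in whole brain (0.42), cortex (0.81), striatum (0.22) and cerebellum (0.68). Rxrg, the retinoid X receptor of striatal neurons, was at 0.21 in striatum, 0.14 in cortex, -0.23 in cerebellum and -0.70 in olfactory bulb. Its mean was thus highest in striatum and lowest in olfactory bulb, and it differed among the regions (adjusted p = 7.55e-07, limma's F test). Cortex was not called below striatum for Rxrg. Fabp5, which carries retinoic acid to another nuclear receptor, Ppard, fell by 1.39 in cerebellum, 1.05 in olfactory bulb, 0.96 in cortex and 0.91 in striatum, and was at 0.03 in whole brain. Of 11 corepressors and coactivators 3 were higher and 5 lower in whole brain, 5 and 5 in olfactory bulb, 5 and 3 in cortex, 5 and 4 in striatum, and 4 and 5 in cerebellum. In whole brain the corepressor Ncor1 fell to -2.00, its partner Tbl1x to -1.68 and the corepressor scaffold Sin3a to -1.14.

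**Figure D4:**
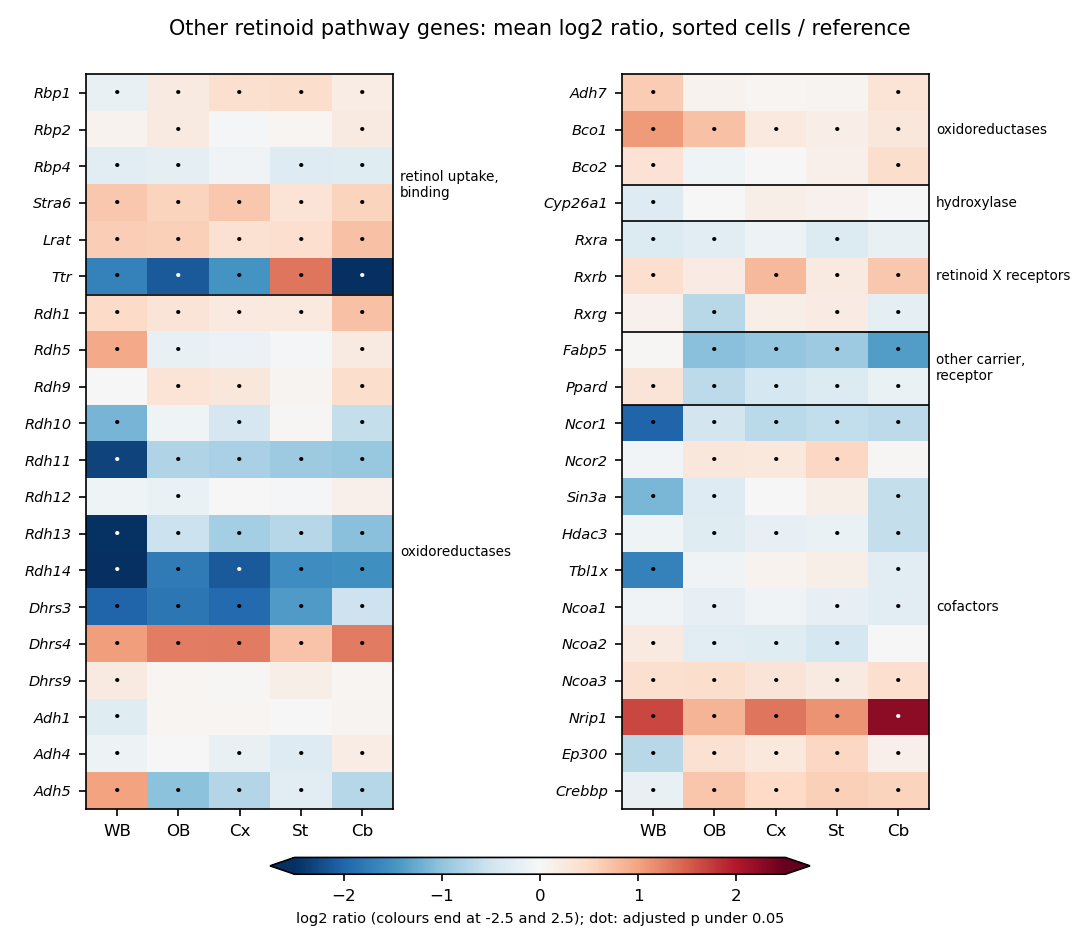
Mean log2 ratio of sorted cells to reference (colour) of other measured genes of retinoid metabolism, binding and receptor function in the 5 groups, with a dot where the adjusted p was under 0.05. Rdh14 and Dhrs3 are below the reference throughout, Nrip1 and Dhrs4 above it, and Ttr is above it in striatum alone.

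Of 15 measured genes known to be induced by retinoic acid, 8 were higher and 5 lower in whole brain, 6 and 4 in olfactory bulb, cortex and striatum each, and 5 and 5 in cerebellum, with medians from 0.01 to 0.15 and shares called near those of all genes. Nrip1, a corepressor of nuclear receptors, rose by 2.23 in cerebellum, 1.67 in whole brain, 1.34 in cortex, 1.12 in striatum and 0.85 in olfactory bulb. It was highest in cerebellum, as was Cyp26b1, and a link between them was not tested. Meis1, a homeobox cofactor, rose by 2.21 in olfactory bulb and by 0.64 to 1.41 elsewhere, and Meis2 by 1.52 in olfactory bulb, while Meis2 fell by 0.21 in cerebellum. Rarres2, encoding chemerin, fell by 1.05 in olfactory bulb and Ret, a receptor tyrosine kinase, by 0.39 to 0.49 in all groups.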

How the data were processed

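Sorted-cell cDNA (Cy5) and a common brain reference (Cy3) were hybridised to 16 two-colour arrays, 1 per sample and with the dyes not swapped, and 250 ng of each was labelled. The labels call the Cy3 reference red, so the direction rests on the dye names. Per the labels' protocols, mRNA was amplified by global PCR. Per the submitters' processing notes the scans were read by Agilent Feature Extraction 8.1.1.1. The deposited intensity of each spot (mean over pixels) and of its local background (median) was used for either channel. The deposited log10 ratio, per the file headers, was computed by that software, and the authors' value table equals it to within 0.005 (column medians 0 to 0.0334).

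From the intensities, the log2 ratios of each array were formed in R 4.3.3 by limma 3.58.1: normexp background with an offset of 50, which pulls dim ratios towards 0, then loess within arrays, with no scaling between arrays. Spots of a probe were averaged, and a gene took its brightest probe. Genes well above background on at least 3 arrays in the sorted channel or 8 in the reference channel were kept. Names came from the GRCm38.p6 RefSeq table by accession (21445 probes), symbol (5431) or synonym (4636), and 9662 probes kept the array's name. Promoter windows are RefSeq's. All arrays were fitted with 5 group means (lmFit, eBayes), with Benjamini-Hochberg adjustment over 27262 genes. SE values are limma's. A ratio against 0 leaves out the reference's own spread and any dye effect. On a side with no array well above background, a fold is a bound, with the dim signal raised to the lowest signal well above background on each array. The test was checked on simulated data. Figures were drawn with matplotlib 3.10.9.

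The genes and lists were chosen with earlier results of these data known. Named were the 9 genes with all probes, list genes called with at least a 2-fold difference, and, for genes with a 2-fold range among regions, the 3 genes of highest correlation. Stra6, Lrat, Cyp26a1, Rxrb, Rxrg, Ret and the gamma 3 probes fall outside that rule and were named after their values were seen. Some genes of the lists are counted but not reported here by name. Labels call the replicates biological, but do not say whether regional samples share mice. The number of arrays limits the precision.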

Additional observations from a re-analysis of the deposited data

Results flagged for a closer look

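In whole-brain cells, the only group with more than 3 arrays, Aldh1a1 had 1 array apart from the rest. The fourth array was at -0.54 and the others between -1.28 and -1.16, a gap of 0.839 of the whole range, beyond Dixon's 95% limit for 4 arrays. Such a gap arises by chance in about 1 group in 20, and 9 genes were looked at. Without this array Aldh1a1 in whole brain lay below the mean of the regions by 0.29 (adjusted p = 0.0454, limma), against 0.12 and no call with it.

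The ratio to the reference differed among the 4 regions for 8 genes by limma's moderated F test. The range between the highest and lowest region mean, on the log2 scale, was 1.60 for Rara (striatum over cerebellum), 1.05 for Aldh1a1 (cortex over striatum), 0.98 for Crabp1 (cortex over olfactory bulb) and 0.94 for Rarb (cerebellum over olfactory bulb). It was 0.89 for Cyp26b1 (cerebellum over olfactory bulb), 0.65 for Crabp2 (olfactory bulb over striatum), 0.54 for Rarg (cerebellum over olfactory bulb) and 0.32 for Aldh1a2 (cerebellum over striatum). For Rarg the F test was not called with median centring (range 0.25, adjusted p = 0.306) or in the sorted-cell channel alone (0.41, adjusted p = 0.316). By its dimmer probe it was not called either (0.35, adjusted p = 0.071). The place of cerebellum for Rarb holds for the brighter probe only. By the dimmer one striatum was highest (0.31), with cerebellum at -1.27 and olfactory bulb lowest (-1.86). For Aldh1a1, cortex exceeded striatum by 0.23 in the sorted-cell channel alone, without a call (adjusted p = 0.511, limma).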

How the results depend on the processing

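Of 3281 recomputed values of the 9 genes, 3115 counted as the same, 71 lost the call, 73 gained it and 22 turned. A value counted as turned only if its sign changed with a call in either fit. A change of sign with no call in both fits thus counted as the same, and the F test has no direction. Of the 3281 values, 1872 came from fits with 1 array left out. With median centring in place of loess, whole brain turned to 0.18 for Aldh1a2, 0.09 for Rarb and 0.25 for Rarg, Aldh1a3 in olfactory bulb to -0.37, and Rarg to 0.31 in striatum, 0.25 in cortex, 0.06 in olfactory bulb and 0.01 for whole brain against the regions. With the mean of a gene's probes, cerebellum turned to -0.53 for Rarb and -0.17 for Rarg, Rarb to 0.40 for cortex and 0.74 for striatum against cerebellum, and Rarg to 0.03 for whole brain against the regions. With the dimmer probe, chosen after seeing the data, Aldh1a3 turned to -0.05 in whole brain and -0.06 in cerebellum, Rarb to -1.27 in cerebellum, 1.14 for cortex and 1.58 for striatum against cerebellum, and Rarg to -0.47 in cerebellum and 0.26 for whole brain against the regions. In the sorted-cell channel alone, olfactory bulb turned to -0.35 against cortex for Aldh1a2 and to -0.97 against striatum for Aldh1a1. The cause was not tested.

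Counts called moved by over 1.5 times in 3 comparisons. Cortex against cerebellum had 3 genes, but 1 on the scanner's own ratio. Cortex against striatum had 2, but 4 with scaling between arrays or the mean of probes and 1 in the sorted-cell channel alone. Striatum against cerebellum had 3, but 5 with scaling between arrays, the mean of probes or the dimmer probe. With each array left out in turn, cortex against cerebellum gave 2 to 5 genes, the 5 without cerebellum replicate 3. Over the same arrays left out in turn, the counts against the reference stayed at 9 in whole brain, 4 in cortex and 7 in striatum, and ran from 7 to 8 in olfactory bulb and 5 to 7 in cerebellum. Olfactory bulb gave 5 to 6 against cortex, 4 to 6 against striatum and 5 to 7 against cerebellum, cortex 2 to 3 against striatum, striatum 3 to 4 against cerebellum, whole brain 3 to 6 against the regions, and the F test 7 to 9. The scanner's own ratio moved the median of all genes in whole brain to 0.253, against 0.087. The fit with a replicate block changed no call (117 of 117 values the same, with counts such as 9 in whole brain), while deviations of same-numbered arrays correlated at -0.113 to 0.228 and 6 of 15 arrays matched their own number best. The slide as a block was not run, since each array had its own slide, nor the scan date, which held whole brain alone. The stricter filter on dim genes dropped Aldh1a3. Signal over background limits what Aldh1a3 can show.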
